A study of Homo sapiens with 3 samples.

Results

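The E2F transcription factors *E2F1* to *E2F8* and the pocket proteins *RBL1* and *RBL2* were followed in A549 cells, a human line derived from a lung adenocarcinoma. A probe was taken for one of these 10 genes when its RefSeq accession belonged to that gene. This gave 15 of the 58201 probes on the array and 10 of the 22439 genes that the probes matched. One array held RNA from mock cells, which received the transfection reagent Lipofectamine RNAiMAX without any miRNA precursor. The other arrays held RNA from cells given the *miR-139-5p* or the *miR-139-3p* precursor, each at 10 nM per the study's methods. With 1 array per condition, no test was possible and no difference below has a replicate check. Slide 1 carried the RNA of mock cells and of *miR-139-5p* cells, and slide 2 that of *miR-139-3p* cells, so slide and transfection cannot be told apart for *miR-139-3p*. A control transfected with an unrelated precursor was not analysed here. The *miR-139-5p* cells also received a precursor at the same dose, and their signals are given beside the *miR-139-3p* signals for all 10 genes.

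E2F factors switch on the genes a cell needs to copy its DNA. *E2F1*, *E2F2* and *E2F3* are known as activators, while *E2F4*, *E2F5* and *E2F6* mostly repress, and the atypical members *E2F7* and *E2F8* repress E2F target genes without a DP partner. Pocket proteins bind E2F factors and hold their target genes silent until cyclin-dependent kinases phosphorylate them late in G1. *RBL1* encodes p107, which is most abundant in cycling cells, and *RBL2* encodes p130, which is most abundant in resting cells. Several activators and *RBL1* are themselves textbook E2F target genes. In lung adenocarcinoma, as in most tumours, this switch is commonly loosened.

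The transfected miRNAs are the opposite arms of one hairpin on the minus strand of chromosome 11 in GRCh38.p14, *miR-139-3p* at chr11:72615066-72615088 and *miR-139-5p* at chr11:72615102-72615124. Their mature sequences from RefSeq are shown because the seed, bases 2 to 8 from the 5′ end and here in capitals, is the main part of a miRNA that pairs with mRNA. The seeds of the arms are not the same.
hsa-miR-139-3p: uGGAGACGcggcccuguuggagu
hsa-miR-139-5p: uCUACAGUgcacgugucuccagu
No probe was matched to the gene of this miRNA, so the arrays held no check of the transfection itself.

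The labelled cell type held up against its markers. All 4 epithelial markers (*KRT8*, *KRT18*, *CDH1*, *EPCAM*) and all 4 genes typical of A549 (*ALDH1A1*, *AKR1B10*, *AKR1C1*, *NQO1*) had a probe well above background on every array. The brightest probes of the epithelial markers summed to 93318 in mock cells, 57611 after *miR-139-5p* and 52299 after *miR-139-3p*. Those of the A549 genes summed to 115957, 114212 and 66981. *CDH1* and *EPCAM* were highest after *miR-139-3p*. Of 7 markers of leukocytes, endothelium and fibroblasts, 3 had such a probe in mock cells, 3 after *miR-139-5p* and 4 after *miR-139-3p*. Their summed signal was 39.7 in mock cells, 36.8 after *miR-139-5p* and 67.7 after *miR-139-3p*, with none above 25.1, and its part in the results was not tested. Between 48.1% and 53.1% of spots were well above background on an array, and no spot was saturated.

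All 15 probes of the E2F factors and pocket proteins were well above background on all 3 arrays. Some markers of other cell types were so too, at up to 25.1 for *CDH5* after *miR-139-3p*. The dim probes of *E2F3*, *E2F7* and *RBL1*, and *E2F8* after *miR-139-3p*, read below that. Signals are given in arbitrary units as read by the scanner software. For *E2F2* to *E2F8* and the pocket proteins they carry that software's error, which covers the spot and not the culture. Fold changes were calculated after each array was scaled to its 75th percentile, so they differ a little from the ratio of the printed signals. A gene was called lower or higher when its log2 fold change passed 0.5, the size shown in the study's flowchart of gene selection. The level of one probe cannot be set against that of another, so only arrays are compared. A smaller share of cells expressing a gene and less of its mRNA per cell cannot be told apart in these pooled RNA samples.

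After *miR-139-3p*, 5 of the 10 genes were lower than in mock cells (*E2F1*, *E2F2*, *E2F8*, *RBL1*, *RBL2*), *E2F7* was higher, and *E2F3*, *E2F4*, *E2F5* and *E2F6* lay between the thresholds. Over all 15580 genes with a value, 27.8% were lower and 26.5% were higher, so a large part of the transcriptome passed the threshold on this array. The median log2 fold change of the 10 genes was −0.62, against −0.09 over all genes measured on both arrays. After *miR-139-5p*, *RBL2* alone of the 10 was lower and none was higher, while 12.3% of 15069 genes were lower and 10.7% were higher. The median was then −0.17 for the 10 genes and 0.00 for all measured genes. A share of 10% lower is near that background.

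**Figure D1:**
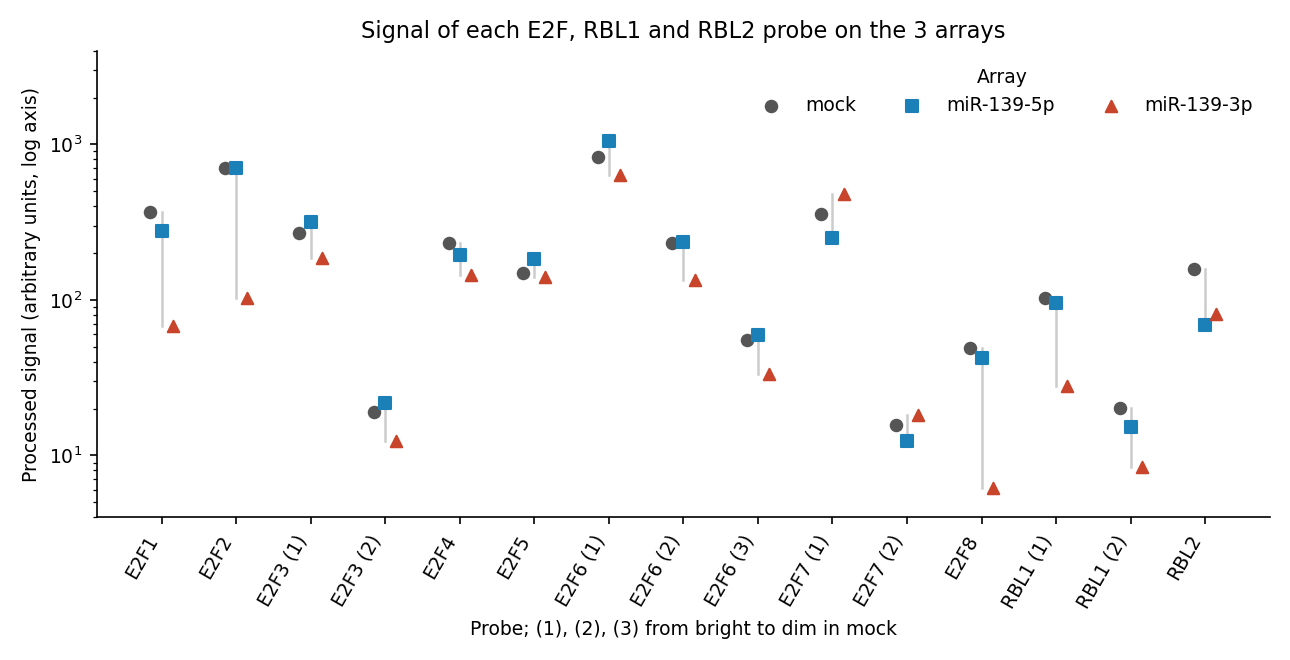
Processed signal of each of the 15 probes (log axis, arbitrary units) on the 3 arrays, 1 point per array, with probes of one gene numbered from bright to dim in mock. The miR-139-3p points of E2F1, E2F2, E2F8 and the brighter RBL1 probe lie far under the other arrays, E2F7 has its highest points there, and RBL2 has its lowest point on the miR-139-5p array.

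Among the activators, *E2F1* and *E2F2* were much lower after *miR-139-3p* and *E2F3* was not. The *E2F1* probe was spotted 10 times on each array. Its median spot read 366 in mock cells (349 to 383, with 1 outlier spot left out), 280 after *miR-139-5p* (265 to 290) and 66.0 after *miR-139-3p* (61.2 to 76.4). No spot of one array overlapped the spots of another, and the SD between spots was 0.04 to 0.11 on the log2 scale. These spots share 1 RNA sample per array, so their spread is technical. *E2F1* was 4.66-fold lower after *miR-139-3p* than in mock cells (log2 fold change −2.22), with 134 of the measured genes lower still. The normexp background correction, which pulls dim signals together, gave −1.60. After *miR-139-5p* its log2 fold change was −0.32.

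**Figure D2:**
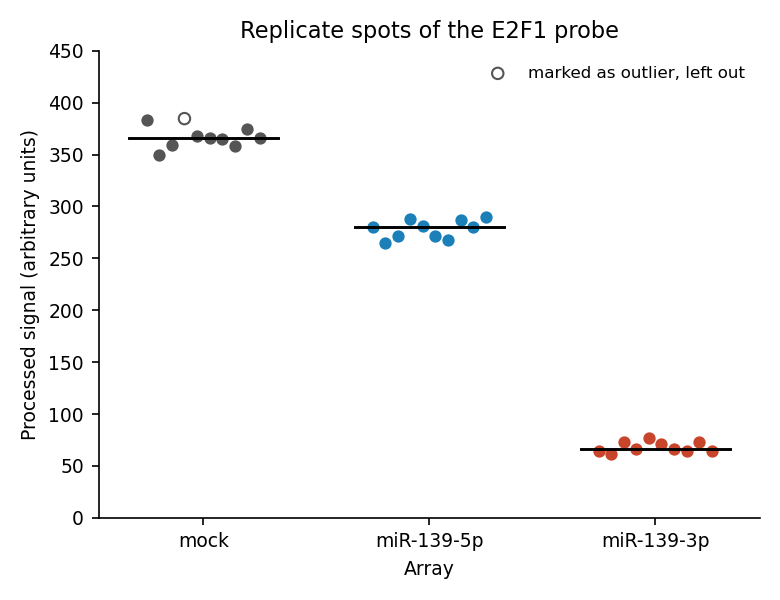
Each of the 10 spots of the E2F1 probe on the 3 arrays, 1 point per spot, with its processed signal on the vertical axis. The spots of an array lie close together, and the miR-139-3p spots lie between 61.2 and 76.4, under every spot of the other arrays.

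*E2F2*, an activator with the same partners as *E2F1*, read 709 ± 70.9 in mock cells, 701 ± 70.1 after *miR-139-5p* and 102 ± 10.3 after *miR-139-3p*. It was 5.99-fold lower after *miR-139-3p* (log2 fold change −2.58, with 61 measured genes lower still), and its value with normexp was −2.01. After *miR-139-5p* its log2 fold change was 0.06. The mock and *miR-139-5p* signals of *E2F2* differed by less than the scanner error, and the *miR-139-3p* signal stood apart from both.

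*E2F3*, the third activator, was measured with a bright and a dim probe. The bright probe read 268 ± 26.8 in mock cells, 315 ± 31.5 after *miR-139-5p* and 186 ± 18.7 after *miR-139-3p*. The dim probe read 18.9 ± 2.19, 21.7 ± 2.53 and 12.3 ± 1.64 in the same order. Both probes were lowest after *miR-139-3p* and highest after *miR-139-5p*. The log2 fold change of the gene against mock was −0.36 after *miR-139-3p* and 0.29 after *miR-139-5p*, inside the threshold, and the difference between the transfected arrays was −0.65.

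None of the repressors *E2F4*, *E2F5* and *E2F6* passed the threshold against mock after either miRNA, although *E2F4* (−0.69) and *E2F6* (−0.64) did after *miR-139-3p* when the arrays were not scaled. *E2F4*, the repressor most often found with p130, read 234 ± 23.4 in mock cells, 193 ± 19.4 after *miR-139-5p* and 145 ± 14.5 after *miR-139-3p*. Its log2 fold change after *miR-139-3p* was −0.48, just inside the threshold, and −0.20 after *miR-139-5p*. *E2F5*, the other repressor bound by pocket proteins, read 148 ± 14.8, 182 ± 18.3 and 140 ± 14.1 in the same order. The 3 signals of *E2F5* lay close together, with log2 fold changes of 0.13 after *miR-139-3p* and 0.37 after *miR-139-5p*.

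*E2F6* represses without pocket proteins and was measured with 3 probes. The brightest read 832 ± 83.2 in mock cells, 1055 ± 105 after *miR-139-5p* and 631 ± 63.1 after *miR-139-3p*. The next read 232 ± 23.2, 235 ± 23.5 and 135 ± 13.5, and the dimmest, designed on another transcript of the gene, read 55.4 ± 5.64, 59.3 ± 6.04 and 33.4 ± 3.48. All 3 probes were lowest after *miR-139-3p*. Their log2 fold changes against mock were −0.19, −0.57 and −0.52, so 2 of the 3 passed the threshold, while the mean of −0.43 (SD between probes 0.21) did not.

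The atypical members parted after *miR-139-3p*: *E2F8* was called lower and *E2F7* was the only one of the 10 called higher. *E2F8* read 48.9 ± 4.98 in mock cells, 42.1 ± 4.34 after *miR-139-5p* and 6.16 ± 1.08 after *miR-139-3p*. It was 6.87-fold lower after *miR-139-3p* (log2 fold change −2.78), with 37 measured genes lower still, and had a log2 fold change of −0.14 after *miR-139-5p*. The signal of 6.16 was near the lower end of what the arrays could measure, and normexp gave a log2 fold change of −0.75 in place of −2.78. The direction was the same and the size was not settled. *E2F8* had the lowest value of the 10 genes against mock, but with normexp it lay above *E2F1* and *E2F2*.

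*E2F7* read 357 ± 35.7 in mock cells, 251 ± 25.1 after *miR-139-5p* and 480.0 ± 48.0 after *miR-139-3p* on its bright probe. Its dim probe read 15.7 ± 1.84, 12.5 ± 1.61 and 18.1 ± 2.01. Both probes were highest after *miR-139-3p* and lowest after *miR-139-5p*. The log2 fold change of the gene was 0.52 after *miR-139-3p* (0.64 and 0.41 on the probes) and −0.35 after *miR-139-5p*, and the transfected arrays differed by 0.87. The call of *E2F7* as higher than mock was lost under 5 other ways of scaling or background correction, where its value was 0.29 to 0.43. The log2 fold change of *E2F7* was 3.30 above that of *E2F8* after *miR-139-3p*, and 1.14 above it with the normexp correction.

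The signals of the pocket proteins *RBL1* and *RBL2* were lowest on different arrays. The pocket protein *RB1* was not among the genes followed here. *RBL1* read 103 ± 10.4 in mock cells, 95.5 ± 9.64 after *miR-139-5p* and 28.1 ± 3.07 after *miR-139-3p* on its bright probe. A dim probe, designed on another transcript, read 20.2 ± 2.37, 15.1 ± 1.99 and 8.47 ± 1.37. Both probes were lowest after *miR-139-3p*, with log2 fold changes of −1.67 and −1.05. The gene was 2.57-fold lower than in mock cells (log2 fold change −1.36, SD between probes 0.44), and its log2 fold change after *miR-139-5p* was −0.19. With the normexp correction, the *miR-139-3p* value of *RBL1* was −0.42 and it was no longer called.

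*RBL2* read 159 ± 15.9 in mock cells, 69.4 ± 7.10 after *miR-139-5p* and 81.2 ± 8.21 after *miR-139-3p*. The mock array was the high one, above both transfected arrays. *RBL2* was 2.18-fold lower after *miR-139-5p* (log2 fold change −1.12, with 212 measured genes lower still) and 1.70-fold lower after *miR-139-3p* (−0.76, with 2684 measured genes lower still). It was the only gene of the 10 called lower after *miR-139-5p*, and it kept that call under each of the other settings at the same threshold, with values of −1.20 to −0.86. The 2 comparisons share the mock array. Set directly against each other, the *miR-139-3p* array was 0.36 above the *miR-139-5p* array for *RBL2*, with a scanner error of 0.20 on that log2 difference. With spike-in scaling, *RBL2* against mock was −0.995 after *miR-139-3p* and −0.997 after *miR-139-5p*. The order of the transfected arrays for *RBL2* is thus not settled.

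**Figure D3:**
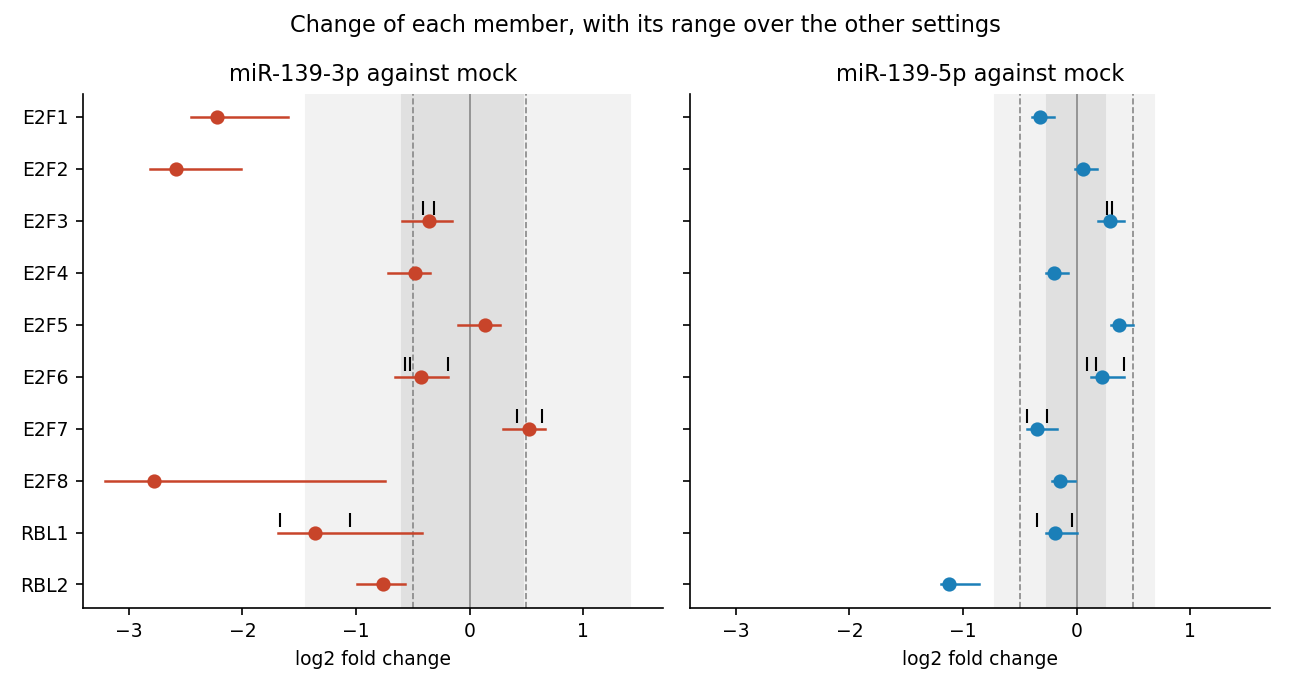
Log2 fold change against mock of each of the 10 genes after miR-139-3p (left) and miR-139-5p (right), with lines for its range over the other settings, black ticks for single probes where a gene has several, dashed lines at the threshold of 0.5, and dark and light grey bands for the middle 50% and 90% of all measured genes. E2F1, E2F2 and E2F8 lie left of the light band after miR-139-3p, and RBL2 does so after miR-139-5p.

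With the *miR-139-5p* array as the reference in place of mock, 6 of the 10 genes were lower after *miR-139-3p* and *E2F7* was higher. Over 15447 genes, 27.9% were lower and 26.4% were higher in that comparison. The log2 differences were −1.90 for *E2F1*, −2.64 for *E2F2*, −2.64 for *E2F8*, −1.17 for *RBL1*, −0.65 for *E2F3* and −0.65 for *E2F6*. *E2F4* at −0.29 and *E2F5* at −0.24 remained between the thresholds. The low signals of *E2F1*, *E2F2*, *E2F8* and *RBL1* were thus seen against either of the other arrays. Both comparisons share the *miR-139-3p* array, which lay apart from them on its own slide, so they are not independent. The scaling mattered for the middle genes: without scaling, or with the spike-in RNA as the standard, *E2F3*, *E2F4* and *E2F6* also passed the threshold against mock after *miR-139-3p*, which gave 8 of 10 lower, while 37.7% and 38.9% of all genes were then lower and their median moved by −0.21 and −0.23. *E2F3* also passed it under quantile normalization, at −0.52, and with the deposited log2 values, at −0.525. *E2F6* also passed it with the median over probes, at −0.52.

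The start sites of the family were read for E2F motifs because E2F factors bind at their own promoters. The letters TTTCCCGC, TTTGGCGC, TTTCGCGC and TTTGCCGC were searched on both strands, from 250 bases before to 50 bases after each annotated start, in the RefSeq promoters of GRCh38.p14. The table held 8 of the 10 genes, with *E2F5* and *E2F8* not in it. A motif was found for 4 of these 8 genes, *E2F1*, *E2F2*, *E2F3* and *RBL1*, against 3.97% of all 27167 genes in the table, counting a gene when any of its windows held one. By window it was 3.3% of all 34943 promoters and 4.08% of the protein-coding ones. The stretches that hold the matches are shown with the matches in capitals, each as read along the gene.
*E2F1*: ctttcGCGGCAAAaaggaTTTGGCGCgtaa
*E2F2*: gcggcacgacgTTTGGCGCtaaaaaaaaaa
*E2F3*: ttgaaaagccgGCGGGAAAtccgagtttcg
*RBL1*: gcagatTTTCGCGCgcTTTGGCGCaggtgg
The *E2F1* stretch lies at chr20:33686394-33686423 on the minus strand and holds matches that begin 33 and 20 bases before the start, the first of them on the other strand. The *E2F2* stretch, at chr1:23531257-23531286 on the minus strand, holds 1 match that begins 42 bases before the start. The *E2F3* stretch, at chr6:20401815-20401844 on the plus strand, holds 1 match on the other strand, 53 bases before the first of its 2 annotated starts. The *RBL1* stretch, at chr20:37096000-37096029 on the minus strand, holds matches that begin 26 and 16 bases before the start. All of these matches lie upstream of the start sites.

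Of the 4 genes with a match, *E2F1*, *E2F2* and *RBL1* were lower after *miR-139-3p* and *E2F3* was between the thresholds. Over all genes with a value and a promoter in the table, 41.4% of 722 with a match and 28.3% of 11204 without one were lower after *miR-139-3p*. After *miR-139-5p* these shares were 10.3% and 12.2%. The genes with a match include *E2F1*, *E2F2*, *E2F3*, *RBL1* and target genes listed below, which were chosen with earlier results known. Shares of higher genes were not calculated for these groups. These letters were not found in the windows of *E2F4*, *E2F6*, *E2F7* and *RBL2*, of which *RBL2* was lower and *E2F7* higher. The letters TTTGAA, an element through which the MuvB complex is known to act, were present in a window of *E2F3* and of *RBL2*, and in 15.2% of all promoters (18.2% of genes). A match is a description of the letters and was not tested as a binding site.

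**Figure D4:**
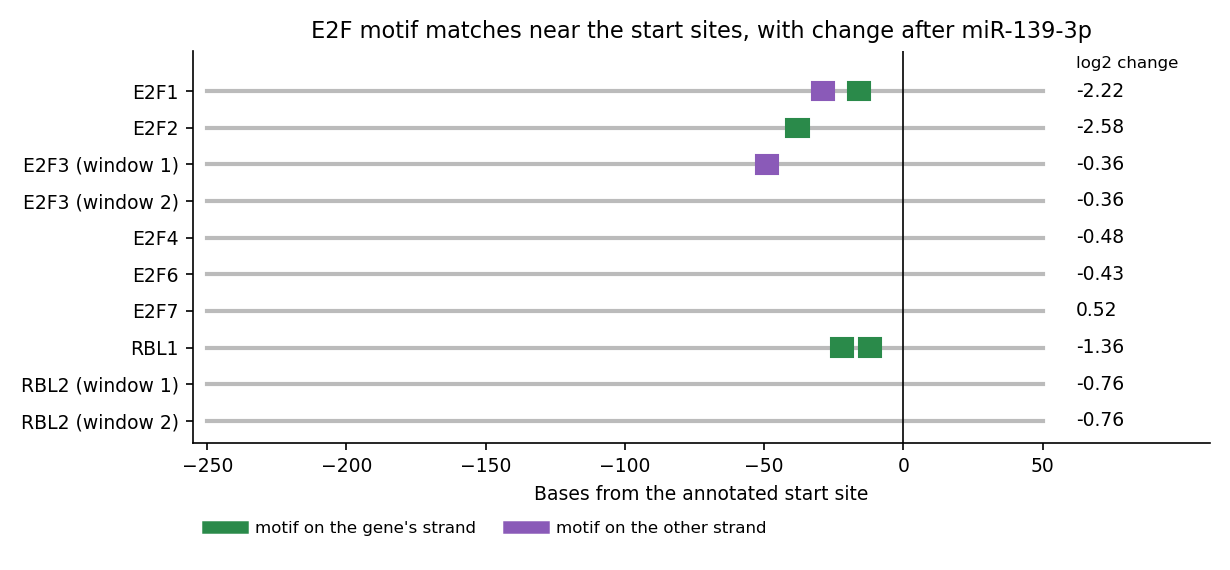
Positions of the E2F motif letters from 250 bases before to 50 bases after each annotated start site (horizontal axis, in bases), 1 row per window, green for the gene's strand and purple for the other, with the gene's log2 fold change after miR-139-3p at the right. The 6 matches lie within 53 bases before the start in E2F1, E2F2, E2F3 and RBL1, and the other windows hold none.

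Of 9 partners of the family, 7 were lower and 1 was higher after *miR-139-3p*, with a median log2 fold change of −0.81, beside 27.8% lower and 26.5% higher over all genes. At a threshold of 1, 3 of the 9 and 11.8% of all genes were lower. *TFDP1* and *TFDP2* encode the DP proteins that typical E2F factors need to bind DNA, and their values were −0.70 (on 1 of 2 probes) and −0.19. *FOXM1* and *MYBL2*, the transcription factors that join the MuvB complex later in the cycle, were the lowest of this group. *FOXM1* read 988 in mock cells, 960.4 after *miR-139-5p* and 180.2 after *miR-139-3p*, a log2 fold change of −2.25. *MYBL2* read 378, 287 and 76.8 on the same arrays, a log2 fold change of −2.09. For both genes the *miR-139-3p* array alone was low.

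The MuvB subunits, which hold pocket proteins and *E2F4* in one repressor complex, did not share a direction. *LIN52* at −1.39, *LIN54* at −0.95, *RBBP4* at −0.81 and *LIN9* at −0.52 were lower after *miR-139-3p*, and *LIN37* at 0.52 was higher, a call that was lost without scaling and with spike-in scaling or normexp. *LIN9* was close to the threshold. The probes of *LIN9* gave −1.03 and −0.02, and those of *RBBP4* from −1.15 to 0.01. With the 75th percentile taken over detected probes, 6 of the 9 partners were lower. After *miR-139-5p*, the median of the 9 partners was 0.03, none was lower, and *LIN54* at 0.58 was the one called higher, beside 12.3% and 10.7% over all genes.

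Of 15 genes that act on pocket proteins (cyclins D and E, their kinases, the inhibitors of these kinases and *SKP2*, which marks an inhibitor for breakdown), 13 had a value. *CCND2* and *CDKN2B* were not well above background on any array. After *miR-139-3p*, 6 of the 13 were lower and 3 were higher, with a median of −0.17. Over all genes, 27.8% were lower and 26.5% were higher. With normexp, 3 of the 13 were still higher, beside 9.96% of all genes. The kinase inhibitors *CDKN1A* and *CDKN1C*, which stop cells before S phase, were among the 3 higher genes. *CDKN1A* read 52.1 in mock cells, 25.2 after *miR-139-5p* and 138 after *miR-139-3p*, with log2 fold changes of −0.97 and 1.62. It was lowest on one transfected array and highest on the other. *CDKN1C* read 123, 85.3 and 335, with log2 fold changes of −0.45 after *miR-139-5p* and 1.66 after *miR-139-3p*.

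The third of the higher genes was *CDK6*, a kinase of the pocket proteins, which read 745 in mock cells, 1412 after *miR-139-5p* and 1715 after *miR-139-3p*. Its log2 fold changes were 1.00 and 1.41. Its partner cyclin *CCND3* went the other way, at 1813, 608 and 521, with log2 fold changes of −1.50 and −1.59. For *CDK6* and *CCND3* the mock array, which both comparisons share, was the one that stood apart. The cyclins E and their kinase were lower after *miR-139-3p*, with *CCNE1* at −1.06, *CCNE2* at −0.82 on the 1 of its 2 probes that was well above background there, and *CDK2* at −1.08.

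*SKP2* at −1.32 and the inhibitor *CDKN2C* at −1.91 were also lower after *miR-139-3p*. *CCND1* at −0.17, *CDK4* at 0.09, *CDKN1B* at 0.45 and *CDKN2D* at 0.08 lay between the thresholds. After *miR-139-5p*, *CCND3* and *CDKN1A* were lower, *CDK6* and *CDKN1B* (0.58) were higher, and the median of the 13 was 0.08. These 2 lower and 2 higher genes of 13 stand beside 12.3% and 10.7% of all genes.

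Textbook target genes of E2F, which encode the replication machinery, nucleotide synthesis and S phase regulators, were lower after *miR-139-3p* in 23 of 25 cases, and none was higher, beside 27.8% lower and 26.5% higher over all genes. Their median log2 fold change was −1.55. The lowest were *MCM2* (−2.92), a subunit of the replicative helicase, *ORC1* (−2.46), part of the origin recognition complex, and *GINS2* (−2.30), which activates that helicase. *MCM2* read 986 in mock cells, 572 after *miR-139-5p* and 112 after *miR-139-3p*. *ORC1* read 112, 71.3 and 17.7, and *GINS2* read 1398, 1339 and 247. All 3 genes were lowest on the *miR-139-3p* array by a wide margin.

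The highest of the targets were *PCNA* (−0.44), the sliding clamp, *TYMS* (−0.48), which makes thymidylate, and *CDC25A* (−0.58), a phosphatase that activates *CDK2*. Of the 25 targets, 6 (*MCM2*, *ORC1*, *GINS2*, *CHAF1B*, *CHEK1*, *HELLS*) were also among genes the study picked on these arrays, so they are not independent evidence of the direction. The 3 lowest targets are all among them. Without those 6, 17 of 19 were lower, with a median of −1.51. These 19 were also chosen with earlier results of these data known, so they are not independent evidence either. The E2F motif letters were present in the promoters of 14 of the 22 targets in the table (63.6%, against 3.97% of all genes), a list chosen for known E2F sites.

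After *miR-139-5p*, 6 of the 25 targets were lower and 1 was higher, with a median of −0.13, beside 12.3% lower and 10.7% higher over all genes. With spike-in scaling, 2 targets were lower and 2 were higher, beside 7.85% and 16.4% of all genes. *MCM2* (−0.71), *MCM5* (−0.64), another helicase subunit, and *ORC1* (−0.58) were the lowest. *CDC25A* was the highest at 0.72, with signals of 164 in mock cells, 257 after *miR-139-5p* and 95.1 after *miR-139-3p*, followed by *RRM2* (0.42), of ribonucleotide reductase, and *CDT1* (0.22), which licenses origins. Without the 6 genes picked by the study, 3 of 19 were lower. None of the 25 passed a log2 fold change of 1 after *miR-139-5p*.

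**Figure D5:**
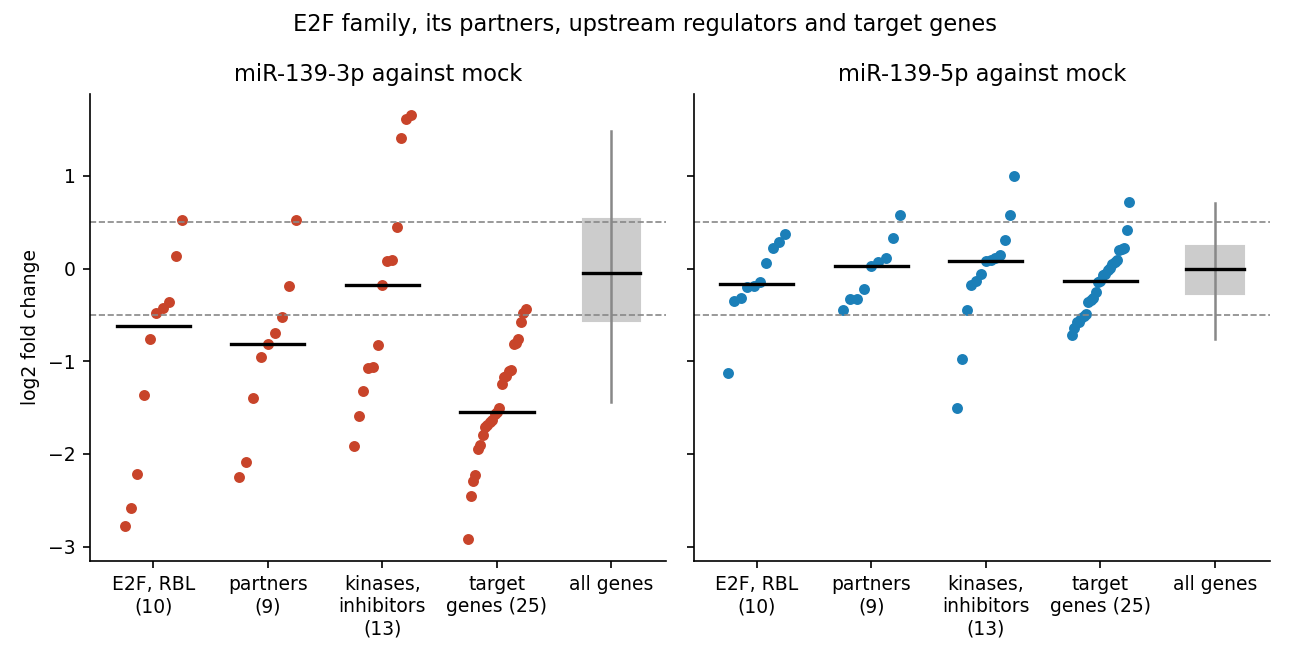
Log2 fold change against mock of every gene with a value in 4 lists, after miR-139-3p (left) and miR-139-5p (right), 1 point per gene, with black bars for medians and dashed lines at the threshold of 0.5. The grey box and line give the middle 50% and 90% of all genes with a value, whose medians are −0.05 and −0.01. After miR-139-3p the targets lie furthest down, with a median of −1.55, and the regulators of pocket proteins spread both ways.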

How the data were processed

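Total RNA of A549 cells was labelled with Cy3 and hybridised to 3 Agilent arrays of 1 colour. Spot intensities as deposited came from Feature Extraction 12.1.1.1, with background subtracted and without normalization between arrays. The deposited table of log2 values matched a quantile normalization of these signals and served as an alternative (r of 0.999999 over probes on each array, median 2.21).

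Each processed signal was divided by its array's 75th percentile (control spots aside) and put on the log2 scale. Outlier spots were left out (614 in mock, 935 after *miR-139-5p*, 1526 after *miR-139-3p*) and spots of one probe averaged. A probe with at least 50% of its spots well above background was detected. A gene is the mean of the probes detected in both conditions compared. Where it had none but a probe was detected in 1 of them, the value is a bound, with the dim side raised, where it lay lower, to the lowest detected signal of that array. There were 1204 bounds among the genes after *miR-139-3p*, 758 after *miR-139-5p* and 1411 between the transfected arrays. Of 58201 probes, 31104 were matched to a symbol through the RefSeq accessions of GRCh38.p14.

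The groups follow the labels, and the dose of 10 nM comes from the methods. Both comparisons with mock share that array. The 10 genes and the lists were chosen with earlier results of these data known. All 10 genes, all partners and regulators of pocket proteins could be named, and of the targets the 3 lowest and 3 highest. The number of arrays limits the precision. In simulated data made for *miR-139-3p* against mock with 15051 genes, 200 of 200 genes given a log2 change of 1 or 2 either way were recovered and 0 of 14851 others passed, which checks the arithmetic and holds no spread between cultures. In total 13 alternatives of scaling, background, filter, probe choice, threshold and reference were tried. The normexp correction (offset 50, on median spot signals) was run in limma 3.58.1 under R 4.3.3, and all else in Python 3.11.15 with numpy 2.4.6, pandas 2.3.3 and matplotlib 3.10.9.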

Additional observations from a re-analysis of the deposited data

How the results depend on the processing

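Over the 13 alternatives, 227 single values moved by no more than the spread among a gene's probes (median SD 0.28 after *miR-139-3p* and 0.15 after *miR-139-5p*), 25 moved by more and 2 changed sign as called values, while 175 counts stayed within 1.5 times and 25 did not. The causes were not tested. After *miR-139-3p*, 8 of the 10 genes were lower without scaling and with spike-in scaling, and 0 were higher under quantile normalization, no scaling, spike-in scaling, normexp, the deposited log2 values and a threshold of 1. Of the partners after *miR-139-3p*, 0 were higher without scaling, with spike-in scaling, with normexp and at a threshold of 1, where 3 were lower. After *miR-139-5p*, 1 partner was lower without scaling and with the brightest probe, and 0 were higher with normexp and at a threshold of 1. Of the targets after *miR-139-5p*, 2 were lower and 2 higher with spike-in scaling, and 0 were lower and 0 higher at a threshold of 1. Of the regulators of pocket proteins after *miR-139-5p*, 1 was lower and 1 higher with normexp, and 1 lower and 0 higher at a threshold of 1. The difference *RBL2* minus *RBL1* after *miR-139-3p* was 0.60, and −0.15 with normexp. *RBL2* was 0.36 with the *miR-139-5p* array as reference. *E2F5* ran from −0.10 to 0.27 after *miR-139-3p*, so it has no settled direction. Of the genes past the threshold after *miR-139-3p*, 48.8% were higher, against 34.2% without scaling, 32.5% with spike-in scaling, 34.6% with normexp and 58.7% with the 75th percentile over detected probes. After *miR-139-5p* these shares were 46.6%, 33.9%, 67.6%, 45.1% and 42.7%. The median of all genes moved by 0.14 with the 75th percentile over detected probes and by 0.17 without the filter on dim probes after *miR-139-3p*, and by 0.12 with spike-in scaling and 0.11 without that filter after *miR-139-5p*. Among the 10 genes after *miR-139-3p*, *E2F8* (signal 6.16) moved most with normexp, from −2.78 to −0.75. No paired analysis was possible because each condition had 1 array.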
